A study of Drosophila melanogaster with 15 samples.

Results

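Pepck1, Pepck2 and fbp are 3 Drosophila genes of gluconeogenesis, and their transcript levels were followed in the larval central nervous system after RNAi against subunits of the mitochondrial respiratory chain and the ATP synthase in neurons. They were chosen by name, as the genes of 2 steps that only the glucose-making direction uses, and because Pepck1 differed between ATPsynCf6 RNAi and COX5B RNAi in earlier results from these arrays. They are 3 of the 11982 genes with a probe set assigned to 1 gene. Each has 1 such probe set: 1633599_a_at for Pepck1 (CG17725), 1634794_at for Pepck2 (CG10924) and 1641066_s_at for fbp (CG31692). In the RefSeq annotation of Drosophila Release 6, Pepck1 and Pepck2 lie on arm 2R with the start of 1 other gene, CG45087, between theirs, and fbp lies on arm 2L. The name Pepck is listed there as an earlier name of both Pepck genes. The ending of the fbp identifier marks a probe set whose probes can match several transcripts, so its signal may not come from fbp alone.

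Phosphoenolpyruvate carboxykinase, the enzyme that both Pepck genes encode, turns oxaloacetate into phosphoenolpyruvate and so bypasses the irreversible pyruvate kinase step of glycolysis. Fructose bisphosphatase, encoded by fbp, reverses the phosphofructokinase step. The pathway is best known from the mammalian liver and kidney, where hormones of fasting raise it. Carboxykinase also drains intermediates from the citric acid cycle and supplies the glycerol backbone of lipids. In fly larvae, Pepck1 transcript is known to rise on starvation. In mammals the gene of the mitochondrial carboxykinase is a target of the stress factor ATF4, whose fly homologue is encoded by crc.

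Every group carried the neuronal driver nSyb-Gal4, and the control larvae (nsybGal4/+) carried no RNAi construct. The 4 RNAi groups carried a construct against ND-75 of complex I (line 33910), UQCR-14 of complex III (line 109542), COX5B of complex IV (line 105769) or ATPsynCf6 of complex V, the ATP synthase (line 107826). There were 3 arrays per group, 15 in all, each from the pooled nervous systems of 15 larvae that wandered at the third instar, kept at 25 °C, with 10 ng of RNA amplified. No group carried RNAi against an unrelated gene and each target had 1 line, so the target and the line cannot be told apart. The arrays measured the whole tissue, glia included, while the RNAi was driven in neurons, and fewer cells of a type cannot be told apart from less RNA per cell. Nothing in the labels says whether the arrays of a group came from separate crosses, so the p-values measure the spread between these samples.

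Signals are the authors' MAS5 intensities, in arbitrary units, and changes are differences of log2(signal + 16), which understate the change of dim probe sets. On 5 arrays (COX5B RNAi 1, and the arrays numbered 3 of all groups except ATPsynCf6 RNAi) the upper quartile of the signals was 170 to 485, against 566 to 653 on the other 10. Results are therefore given over all 15 arrays, then with array weights, which lower the part of deviant arrays, and then over the 10 arrays, where COX5B RNAi is left with 1 array that was assumed to vary like the others. In their own groups, the targeted genes changed by -0.55 (ND-75), 0.15 (UQCR-14), -0.72 (COX5B) and -0.001 (ATPsynCF6) over 15 arrays, with limma adjusted p from 0.65 to 1, so the knockdowns themselves were not called. Of 10 measured neuron markers, 8 or 9 exceeded the array median on all 3 arrays of each group, and of 8 glia markers, 7 or 8 did.

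Pepck1 was higher in ATPsynCf6 RNAi than on any array of the other groups and was dimmest in COX5B RNAi. Its signal was 96.0, 167 and 112 on control arrays 1, 2 and 3 and 369, 391 and 491 in ATPsynCf6 RNAi. All 3 ATPsynCf6 RNAi arrays lay above all 12 others, as did those of 0.89% of the 10340 probe sets that passed the filter on low signals. This pattern chose the gene, so nothing is read from that share. In ND-75 RNAi the Pepck1 signal was 126, 121 and 98.7, and in UQCR-14 RNAi it was 70.6, 114 and 84.1. Both ranges overlapped the control range. In COX5B RNAi it was 22.8, 68.6 and 31.1, below every control array. The values of 22.8 and 31.1 were 0.985 and 0.61 times the median signal of their arrays, which are both among the 5 of low upper quartile, and the value of 68.6, from an array outside those 5, was 1.92 times its median. Ranked among all probe sets of the same array, Pepck1 stood at percentile 68.8 to 72.5 in ATPsynCf6 RNAi, 58.3 to 61.3 in control, 57.5 to 60.9 in ND-75 RNAi, 56.2 to 59.0 in UQCR-14 RNAi and 40.0 to 55.5 in COX5B RNAi. The order of the 5 groups by mean was ATPsynCf6 RNAi, control, ND-75 RNAi, UQCR-14 RNAi and COX5B RNAi, and the middle 3 of these overlapped.

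**Figure D1:**
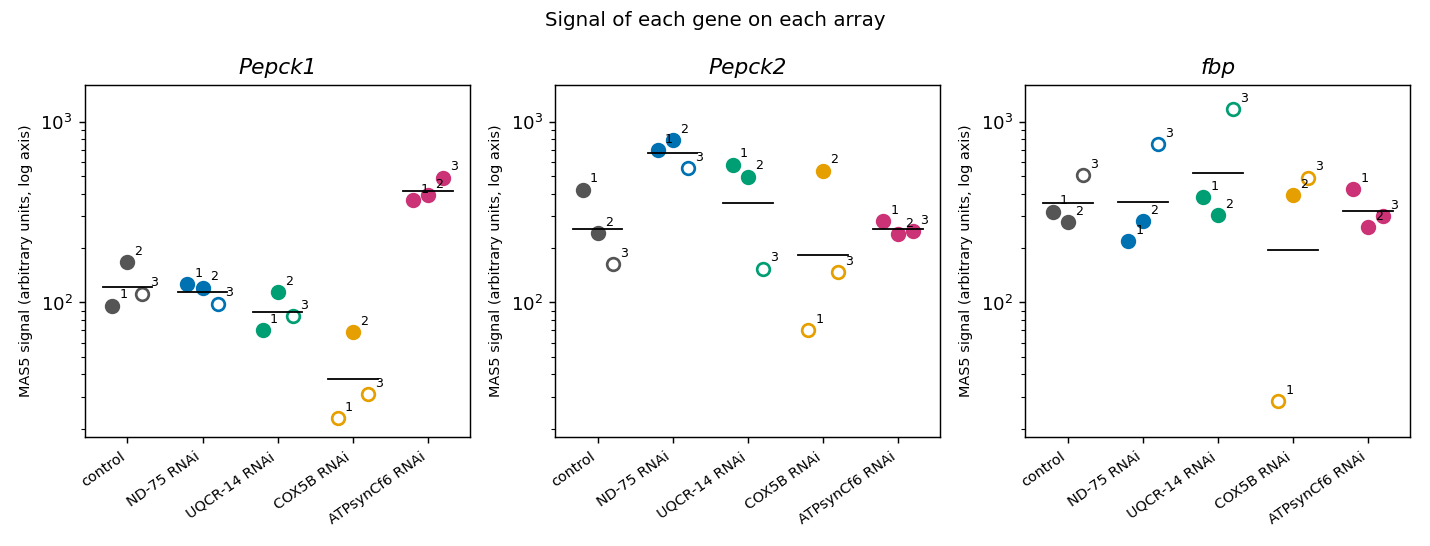
MAS5 signal (arbitrary units, log axis) of Pepck1, Pepck2 and fbp on each of the 15 arrays, by group. Points carry the replicate number, hollow points are the 5 arrays of low upper quartile and black lines are group means taken on the log2(signal + 16) scale. Pepck1 runs from 369 to 491 in ATPsynCf6 RNAi and from 96.0 to 167 in control, and Pepck2 from 555 to 795 in ND-75 RNAi and from 163 to 422 in control.

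The difference between ATPsynCf6 RNAi and COX5B RNAi that brought Pepck1 into view is given as a description. On the log2(signal + 16) scale the means were 8.75 ± 0.21 and 5.75 ± 0.59 (SD, n = 3), a difference of 3.00 (SE 0.37, 95% interval 2.21 to 3.80), with no overlap between the arrays. It was the largest absolute difference of that contrast, at rank 1 of 10340, and since this contrast chose the gene, nothing is read from the rank. In that contrast 0.00967% of probe sets passed the test over 15 arrays, and the arrays of 10.8% did not overlap with ATPsynCf6 RNAi higher. The difference was 2.57 with array weights and 2.35 over the 10 arrays, where COX5B RNAi is represented by its brightest value, 68.6. In the same contrast Pepck2 differed by 0.45 and fbp by 0.69 over 15 arrays, and both differences had the opposite sign over the 10 arrays (-1.03 and -0.28).

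Against control, Pepck1 in ATPsynCf6 RNAi was higher by 1.64 (3.12-fold, SE 0.37, 95% interval 0.85 to 2.43). This comparison uses the ATPsynCf6 RNAi arrays on which the gene was chosen, so its tests are not independent of the choice. Over 15 arrays it did not pass (limma adjusted p = 0.347, unadjusted p = 0.000502), in a contrast where 0.0193% of probe sets did. It ranked 14 by p-value and 45 by absolute change among the 10340. With array weights the change was 1.68 (SE 0.19, limma adjusted p = 1.01e-05), in a fit that called 6.91% of probe sets. Over the 10 arrays it was 1.59 (SE 0.25, limma adjusted p = 0.0046), with 3.22% called. Leaving out a further array of the 10 tests this change only where the array is of control or ATPsynCf6 RNAi, and otherwise it stayed at 1.59. In those fits the change ran from 1.24 to 1.94. The call was lost without control 1 (change 1.24) and kept in the rest. The arrays of 8.95% of probe sets were, like those of Pepck1, all higher in ATPsynCf6 RNAi than in control.

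Neither ND-75 RNAi nor UQCR-14 RNAi showed such a difference from control. Pepck1 changed by -0.08 in ND-75 RNAi (95% interval -0.87 to 0.71) and by -0.40 in UQCR-14 RNAi (95% interval -1.20 to 0.39), with a limma adjusted p of 1 in both. The difference between knockdowns was tested directly. Pepck1 was lower in ND-75 RNAi than in ATPsynCf6 RNAi by -1.72 over 15 arrays (limma adjusted p = 0.286, 0.0484% called), by -1.64 with array weights (limma adjusted p = 0.000323, 3.05% called) and by -1.63 over the 10 arrays (limma adjusted p = 0.00399, 4.52% called). It was lower in UQCR-14 RNAi than in ATPsynCf6 RNAi by -2.04 (limma adjusted p = 0.156, 0.029% called), -1.92 with array weights (limma adjusted p = 0.000173, 1.86% called) and -2.02 over the 10 arrays (limma adjusted p = 0.00255, 2.82% called). Leaving out a further array of the 10 tests each difference only where the array is of a compared group, and otherwise they stayed at -1.63 and -2.02. In the fits that do test it, the difference of ND-75 RNAi ran from -1.70 to -1.51 and stayed called. That of UQCR-14 RNAi ran from -2.31 to -1.72, and its call was lost without UQCR-14 RNAi 1 (-1.72). Both pairs again contain the ATPsynCf6 RNAi arrays on which the gene was chosen.

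The lower Pepck1 of COX5B RNAi was -1.36 against control over 15 arrays (SE 0.37, 95% interval -2.16 to -0.57, limma adjusted p = 0.541, unadjusted p = 0.00231). No probe set passed in that contrast (0% called, 578 at an unadjusted p under 0.05), and the median change of all probe sets was -0.32. The arrays of 4.41% of probe sets all lay below control in COX5B RNAi, as those of Pepck1 did. With array weights the change was -0.88 (limma adjusted p = 0.922, 0.203% called) and over the 10 arrays -0.76 (limma adjusted p = 0.373, 1.24% called). These tests use the COX5B RNAi arrays on which the gene was chosen and are not independent of the choice. COX5B RNAi 1, which had the lowest Pepck1 signal (22.8), also had the highest ratio of actin signal between the 3' and 5' ends of the transcript, 70.1 against 2.94 to 3.95 on the control arrays, and 3.57 and 3.58 on the other COX5B RNAi arrays. A high ratio is a sign of poor RNA integrity, and its part in the difference was not tested. Without that array the change was -1.13.

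**Figure D2:**
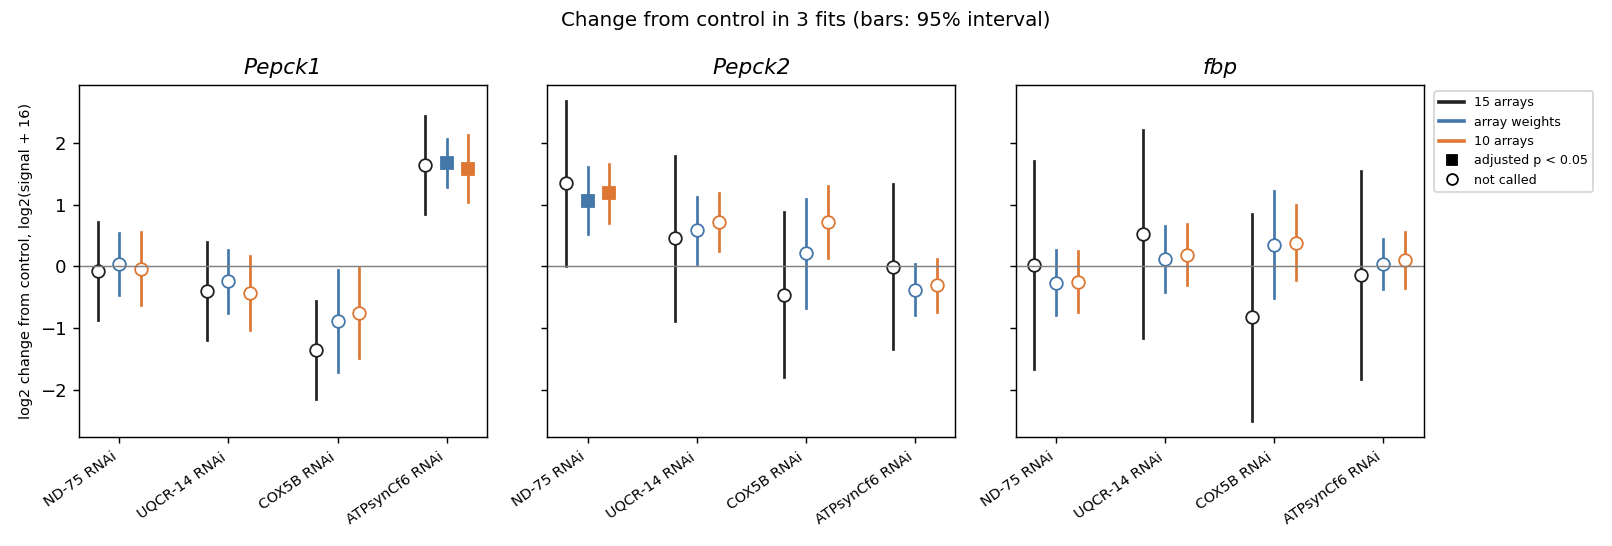
Change from control on the log2(signal + 16) scale (vertical axis) of the 3 genes in each RNAi group, from the fit of all 15 arrays (black), with array weights (blue) and over the 10 arrays (orange). Bars are 95% intervals and filled squares mark limma adjusted p under 0.05, which only Pepck1 in ATPsynCf6 RNAi and Pepck2 in ND-75 RNAi reach, each with array weights (1.68 and 1.06) and over the 10 arrays (1.59 and 1.18).

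Pepck2, the neighbouring carboxykinase gene, had its higher signals in another knockdown. It was 422, 241 and 163 on the control arrays and 699, 795 and 555 in ND-75 RNAi. All 3 ND-75 RNAi arrays exceeded all 3 control arrays, which was true of 3.54% of probe sets. In ATPsynCf6 RNAi, where Pepck1 was high, Pepck2 was 281, 238 and 248, within the control range. UQCR-14 RNAi had Pepck2 signals of 579, 497 and 154 and COX5B RNAi had 70.1, 537 and 147. In each of these groups the arrays of low upper quartile gave the low values. The remaining arrays gave 497 to 579, above every control array. With all their arrays, both groups overlapped the control range. ND-75 RNAi 3, also of low upper quartile, had the lowest value of its group. By percentile within the array, Pepck2 stood at 76.3 to 79.2 in ND-75 RNAi, 65.4 to 75.2 in UQCR-14 RNAi, 61.7 to 72.6 in COX5B RNAi, 63.1 to 70.6 in control and 64.3 to 66.0 in ATPsynCf6 RNAi, so that the ND-75 RNAi arrays had the higher ranks and the other 4 groups overlapped.

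In ND-75 RNAi, Pepck2 was higher than control by 1.35 (2.54-fold, SE 0.63, 95% interval 0.01 to 2.68). The arrays of this comparison are not those of the contrast that chose Pepck1. Over 15 arrays it did not pass (limma adjusted p = 1, unadjusted p = 0.0483), where 0.0677% of probe sets did. With array weights the change was 1.06 (SE 0.26, limma adjusted p = 0.0464, 1.57% called), and over the 10 arrays it was 1.18 (SE 0.22, limma adjusted p = 0.0184, 1.69% called). Leaving out a further array of the 10 tests this change only where the array is of control or ND-75 RNAi. Without an array of UQCR-14 or ATPsynCf6 RNAi the change stayed at 1.18. It was 1.57 without control 1 and 1.27 without ND-75 RNAi 1, and the call was kept. It was 0.80 without control 2 and 1.09 without ND-75 RNAi 2, and the call was lost. Each of these fits leaves 1 array in a compared group. The actin ratio was 37.4 on ND-75 RNAi 2 and 20.1 on ND-75 RNAi 3, against 3.79 on ND-75 RNAi 1. The Pepck2 signal was 699 on that last array and 795 and 555 on the others, and the part of RNA integrity in the result was not tested.

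Pepck2 did not pass against control in the other knockdowns. In UQCR-14 RNAi it changed by 0.46 over 15 arrays (SE 0.63, limma adjusted p = 1, 0.0484% called), 0.59 with array weights (limma adjusted p = 0.239, 4.47% called) and 0.72 over the 10 arrays (limma adjusted p = 0.0826, 4.59% called). In ATPsynCf6 RNAi it changed by -0.01 over 15 arrays (95% interval -1.34 to 1.33), -0.31 over the 10 arrays (95% interval -0.74 to 0.13, limma adjusted p = 0.526) and -0.38 with array weights (95% interval -0.80 to 0.03, limma adjusted p = 0.304). In COX5B RNAi the sign depended on the fit, at -0.46 over 15 arrays, 0.72 over the 10 arrays and 0.21 with array weights, and no call was made.

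Between knockdowns, Pepck2 was higher in ND-75 RNAi than in ATPsynCf6 RNAi, the reverse of Pepck1. The difference was 1.35 over 15 arrays (limma adjusted p = 1), 1.44 with array weights (limma adjusted p = 0.00199) and 1.49 over the 10 arrays (limma adjusted p = 0.00158). The call held when any further array of ND-75 or ATPsynCf6 RNAi was left out of the 10 (1.40 to 1.58). The arrays did not overlap, which was so for 5.27% of probe sets in this direction, and for 9.93% in the direction of Pepck1. Pepck2 was also higher in UQCR-14 RNAi than in ATPsynCf6 RNAi with array weights (0.97, limma adjusted p = 0.0493) and over the 10 arrays (1.03, limma adjusted p = 0.0224). The latter call was lost whenever a further array of UQCR-14 or ATPsynCf6 RNAi was left out (0.92 to 1.14). It held only without an array of control or ND-75 RNAi, which leaves the difference at 1.03 and does not test it. Over 15 arrays that difference was 0.46 (limma adjusted p = 0.988), and it was 1.03 without UQCR-14 RNAi 3, which had a signal of 154.

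The opposite placing of the 2 carboxykinase genes can be read within each array, where the array's scale cancels. A ratio of 2 probe sets has no meaning as a level, and only its differences between arrays are used. Log2 of Pepck1 over Pepck2 was -2.14, -0.53 and -0.54 on the control arrays, 0.40, 0.72 and 0.99 in ATPsynCf6 RNAi and -2.47, -2.72 and -2.49 in ND-75 RNAi. ATPsynCf6 RNAi lay above all other arrays and ND-75 RNAi below all control arrays. UQCR-14 RNAi had -3.04, -2.12 and -0.88 and COX5B RNAi had -1.62, -2.97 and -2.24, both overlapping control. The group means were 0.70 ± 0.30 in ATPsynCf6 RNAi, -1.07 ± 0.92 in control, -2.56 ± 0.14 in ND-75 RNAi, -2.28 ± 0.67 in COX5B RNAi and -2.01 ± 1.08 in UQCR-14 RNAi (SD, n = 3). Across arrays, the log2 signals of Pepck1 and Pepck2 correlated at 0.19 over all 15 and at -0.77 over the 10, which are descriptive values over arrays that share groups. The ratio was chosen after the separate values were known and reuses them. Pepck1 was also chosen on the ATPsynCf6 RNAi arrays. The placing of the groups by this ratio is therefore a description and no further evidence.

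**Figure D3:**
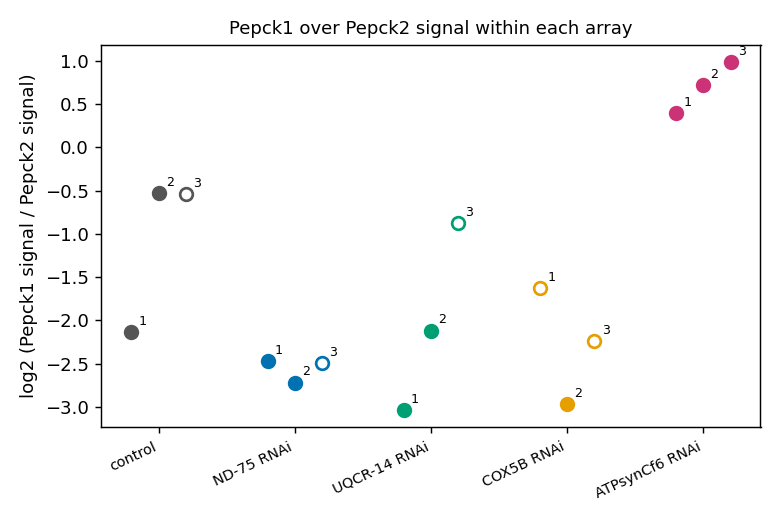
Log2 of the Pepck1 signal over the Pepck2 signal within each array (vertical axis), by group, with replicate numbers beside the points and hollow points for the 5 arrays of low upper quartile. The ATPsynCf6 RNAi arrays sit at 0.40 to 0.99, above the control arrays at -2.14 to -0.53, and the ND-75 RNAi arrays at -2.72 to -2.47, below them.

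The fructose bisphosphatase gene fbp followed neither carboxykinase gene. Its signal was 318, 279 and 505 in control, 219, 281 and 754 in ND-75 RNAi and 384, 305 and 1180 in UQCR-14 RNAi. It was 424, 261 and 301 in ATPsynCf6 RNAi and 28.4, 394 and 491 in COX5B RNAi. Every RNAi group overlapped control. In every group except ATPsynCf6 RNAi the highest fbp value was that of replicate 3, and the lowest of all, 28.4, was that of COX5B RNAi 1, so the arrays of low upper quartile gave the extremes. Within the other 10 arrays the signal ran from 219 to 424. Over 15 arrays the changes from control were 0.02 in ND-75 RNAi (95% interval -1.66 to 1.70), 0.52 in UQCR-14 RNAi (-1.16 to 2.21), -0.14 in ATPsynCf6 RNAi (-1.82 to 1.55) and -0.83 in COX5B RNAi (-2.51 to 0.86). None of these comparisons of fbp with control passed in any of the 3 fits. Each interval holds a change of the size of that of Pepck1 in ATPsynCf6 RNAi (1.64). That change would be upward in ND-75 and UQCR-14 RNAi, and downward in ND-75, ATPsynCf6 and COX5B RNAi. Log2 signals of fbp correlated with those of Pepck1 at 0.18 over 15 arrays and -0.14 over the 10, and with those of Pepck2 at 0.26 and -0.08.

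Taking the 4 knockdowns together gave no shared change of the 3 genes. The mean of the RNAi groups minus control was -0.05 for Pepck1, 0.34 for Pepck2 and -0.11 for fbp over 15 arrays, where 0.0484% of probe sets passed and none of the 3 did. In an exact two-sided permutation test of the 12 RNAi arrays against the 3 controls (455 choices, smallest p 0.0022) the p-values were 0.949, 0.602 and 0.831, and each was 0.949 after adjustment over the 3 tests. Of the 12 RNAi arrays, 3 were above the highest control array and 5 below the lowest for Pepck1, 6 above and 3 below for Pepck2, and 2 above and 3 below for fbp. For Pepck1 the 3 arrays above were those of ATPsynCf6 RNAi.

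Other genes of the pathway were read from 5 written lists, in which 51 genes had a probe set of 1 gene and 44 passed the filter. Over 15 arrays 0 of the 44 passed in any comparison with control, against 0% to 0.0677% of all probe sets. In ATPsynCf6 RNAi 8 of 44 rose and 0 fell with array weights (4.08% of all probe sets rose), and 7 rose over the 10 arrays (1.91% rose). The median change of the 44 there was 0.23 over 15 arrays and 0.12 over the 10, beside 0.07 and -0.01 for all probe sets. These counts describe lists written with earlier results known.

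Those that rose in ATPsynCf6 RNAi over the 10 arrays were mostly enzymes of glycolysis and sugar storage. Hex-A, a hexokinase that traps glucose by phosphorylating it, rose by 1.35 (limma adjusted p = 0.000206). Pfk, the phosphofructokinase whose step fbp reverses, rose by 0.66 (limma adjusted p = 0.0336). Of 7 enzymes that serve both directions, 3 rose: the aldolase gene Ald1 by 0.95 (limma adjusted p = 0.00787), the phosphoglucose isomerase gene Pgi by 0.61 (limma adjusted p = 0.0209) and the triosephosphate isomerase gene Tpi by 0.62 (limma adjusted p = 0.0192). The other 4 (Gapdh1, Pgk, Pglym78 and Eno) had changes of 0.14 to 0.47 that did not pass. Of 11 enzymes that feed gluconeogenesis or use its product, Pgm1, a phosphoglucomutase, rose by 1.04 (limma adjusted p = 0.00116) and Got2, a mitochondrial aspartate aminotransferase that can supply oxaloacetate, rose by 0.53 (limma adjusted p = 0.0277). GlyS, the glycogen synthase gene, passed only with array weights (0.46, limma adjusted p = 0.0499) and not over the 10 arrays (0.43, limma adjusted p = 0.0981).

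The enzyme genes at either end of the pathway, PCB and G6P, did not pass in ATPsynCf6 RNAi. PCB, the pyruvate carboxylase gene that makes oxaloacetate for carboxykinase, changed by 0.28 over 15 arrays and 0.06 over the 10 (limma adjusted p = 0.87). G6P, the glucose-6-phosphatase gene, changed by 0.07 and 0.03. The malic enzyme gene Men had a change of 0.38 over the 10 arrays (limma adjusted p = 0.211) but was lower in ND-75 RNAi than in ATPsynCf6 RNAi by -0.67 and in UQCR-14 RNAi by -0.68, both called over the 10 arrays. In the pair of ND-75 and ATPsynCf6 RNAi 5 of 44 list genes were lower in ND-75 RNAi over the 10 arrays (Pgi, Tpi, Gapdh1, Men and Pgm1, from -0.75 to -0.49), the direction of Pepck1, and 0 were higher, where 2.47% of all probe sets were lower. With array weights 1 was lower, Men (1.78% of all), and over 15 arrays 0 were. In the pair of UQCR-14 and ATPsynCf6 RNAi 4 were lower in UQCR-14 RNAi (Men, Pgm1, the glycogen phosphorylase gene GlyP and Hex-A, from -0.89 to -0.63) and 0 were higher, where 1.44% of all were lower. With array weights 1 was lower, Hex-A (1.03% of all), and over 15 arrays 0 were.

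In ND-75 RNAi, where Pepck2 was called, 2 of 44 list genes rose and 0 fell over the 10 arrays, beside 0.899% of all probe sets that rose. These were Hex-A (1.00, limma adjusted p = 0.00531) and Ald1 (0.80, limma adjusted p = 0.0432). In UQCR-14 RNAi 1 of 44 rose, Ald1 (0.86, limma adjusted p = 0.0185), beside 2.4% of all, and in COX5B RNAi 0 of 44 passed, beside 1.24% of all. The change of Ald1 in COX5B RNAi was 0.69 and did not pass (limma adjusted p = 0.167). In UQCR-14 RNAi none of Pepck1, Pepck2 and fbp passed against control in the 3 fits.

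**Figure D4:**
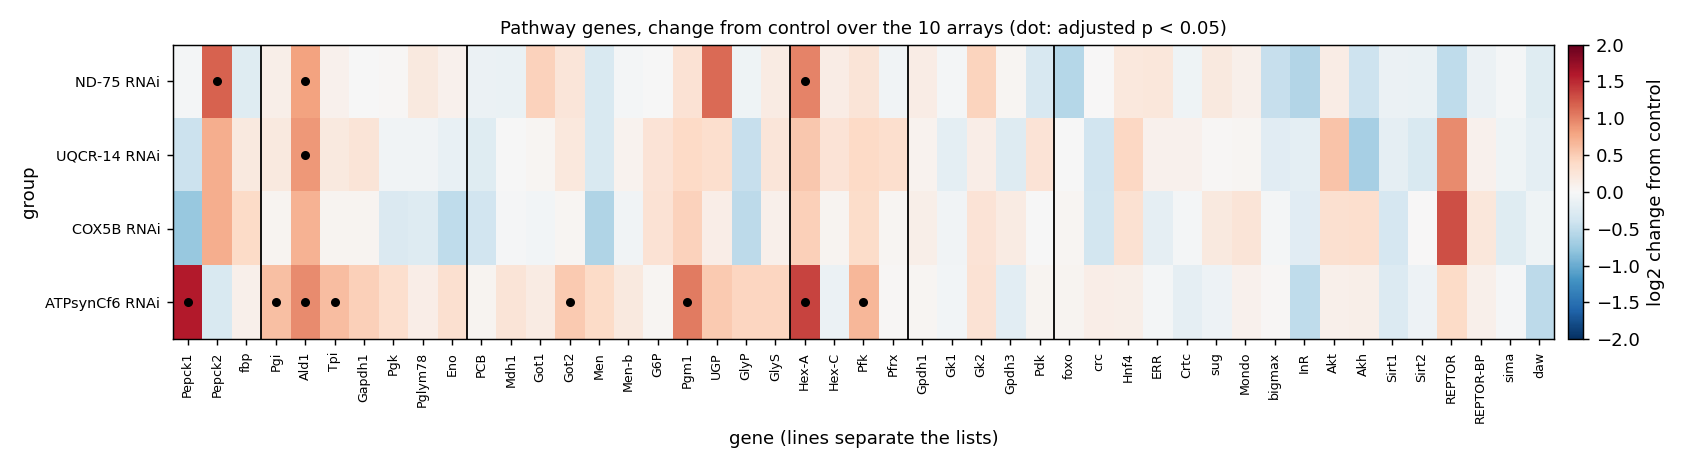
Change from control over the 10 arrays (colour, log2 scale) of the 3 genes and of the 44 list genes that passed the filter (horizontal axis, lists separated by lines) in each RNAi group (vertical axis), with a dot where limma adjusted p was under 0.05. The row of ATPsynCf6 RNAi holds 7 dots among the list genes, ND-75 RNAi 2, UQCR-14 RNAi 1 and COX5B RNAi 0.

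Of 17 regulators and nutrient signalling genes on the lists, 0 passed against control in any RNAi group, in any of the 3 fits, against 0% to 6.91% of all probe sets. The forkhead factor gene foxo, which insulin signalling holds in check and which activates genes of fasting, changed by 0.67 in ATPsynCf6 RNAi over 15 arrays and by 0.06 over the 10. In ND-75 RNAi it changed by 0.04 and -0.57. The ATF4 homologue crc changed by -0.19 in ND-75 RNAi over 15 arrays and by 0.00 over the 10. The arrays measured only its transcript, and its part in the Pepck2 result was not tested. REPTOR, a transcription factor downstream of TORC1, was lower in ND-75 RNAi than in UQCR-14 RNAi over the 10 arrays (-1.46, called), as was Pdk, a kinase that inhibits pyruvate dehydrogenase (-0.60, called), where 0.938% of all probe sets were lower. In this pair Pepck2 differed by 0.89 over 15 arrays and did not pass, and it differed by 0.32 without UQCR-14 RNAi 3. Of the 5 genes of the glycerol and lactate branches 0 passed against control in these fits, beside the same shares of all probe sets, Gk1, a glycerol kinase, included (0.09 in ATPsynCf6 RNAi over 15 arrays). PyK, whose step carboxykinase bypasses, and Ldh, Gapdh2 and Mdh2 had no probe set of 1 gene and were not analysed here.

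Since the larval fat body expresses the carboxykinase genes and can cling to a dissected nervous system, its markers were read beside Pepck1. Of the 11 fat body markers listed, 6 had a probe set (Lsp2, Fbp1, Fbp2, apolpp, apoLTP and Desat1), none was at 0 and all 6 exceeded the array median on all arrays. Their summed signal was 8530 to 10400 in control, 10100 to 10900 in ND-75 RNAi, 9470 to 21100 in COX5B RNAi, 12700 to 13500 in UQCR-14 RNAi and 11100 to 15500 in ATPsynCf6 RNAi, so the last 2 groups did not overlap control. Lsp2, a larval storage protein gene, was 3812, 721 and 366 on ATPsynCf6 RNAi arrays 1, 2 and 3, and Fbp1 and Fbp2, which are fat body proteins and not the bisphosphatase, were 896, 212 and 130, and 1622, 307 and 103. Desat1, a fatty acid desaturase gene, was 3391, 3546 and 3899, the lipid carrier gene apolpp 5582, 6960 and 6400 and the lipid transfer gene apoLTP 237, 265 and 242. Pepck1 on the same arrays was 369, 391 and 491. Across these 3 arrays Lsp2, Fbp1 and Fbp2 were ordered opposite to Pepck1 and Desat1 was ordered as Pepck1 was, while apolpp and apoLTP were, like Pepck1, lowest on array 1. On the control arrays Lsp2 was 238, 323 and 1429 and Desat1 2345, 2555 and 3228, with Pepck1 at 96.0, 167 and 112. Desat1 was thus above every control array in ATPsynCf6 RNAi, as were 8.95% of all probe sets, while Lsp2, Fbp1, Fbp2, apolpp and apoLTP overlapped control. Desat1 was also above every control array in COX5B RNAi (8924, 3664 and 3405), where Pepck1 was dimmest, as were 2.99% of all probe sets. In ND-75 RNAi, array 2 had the highest Pepck2 signal of its group, 795. It had the lowest Lsp2 (304, 210 and 671 on arrays 1, 2 and 3) and Fbp1 (225, 162 and 753) of the group. The same array also had the lowest Fbp2 (161, 97.8 and 646) and Desat1 (3097, 2492 and 3155). Its apolpp (5971, 7492 and 5064) and apoLTP (306, 476 and 237) were the highest of the group. Summed salivary glue signal was 1060 to 1790 in ATPsynCf6 RNAi and 928 to 12800 in control. The part of other tissues in the Pepck1 and Pepck2 results was not tested.

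**Figure D5:**
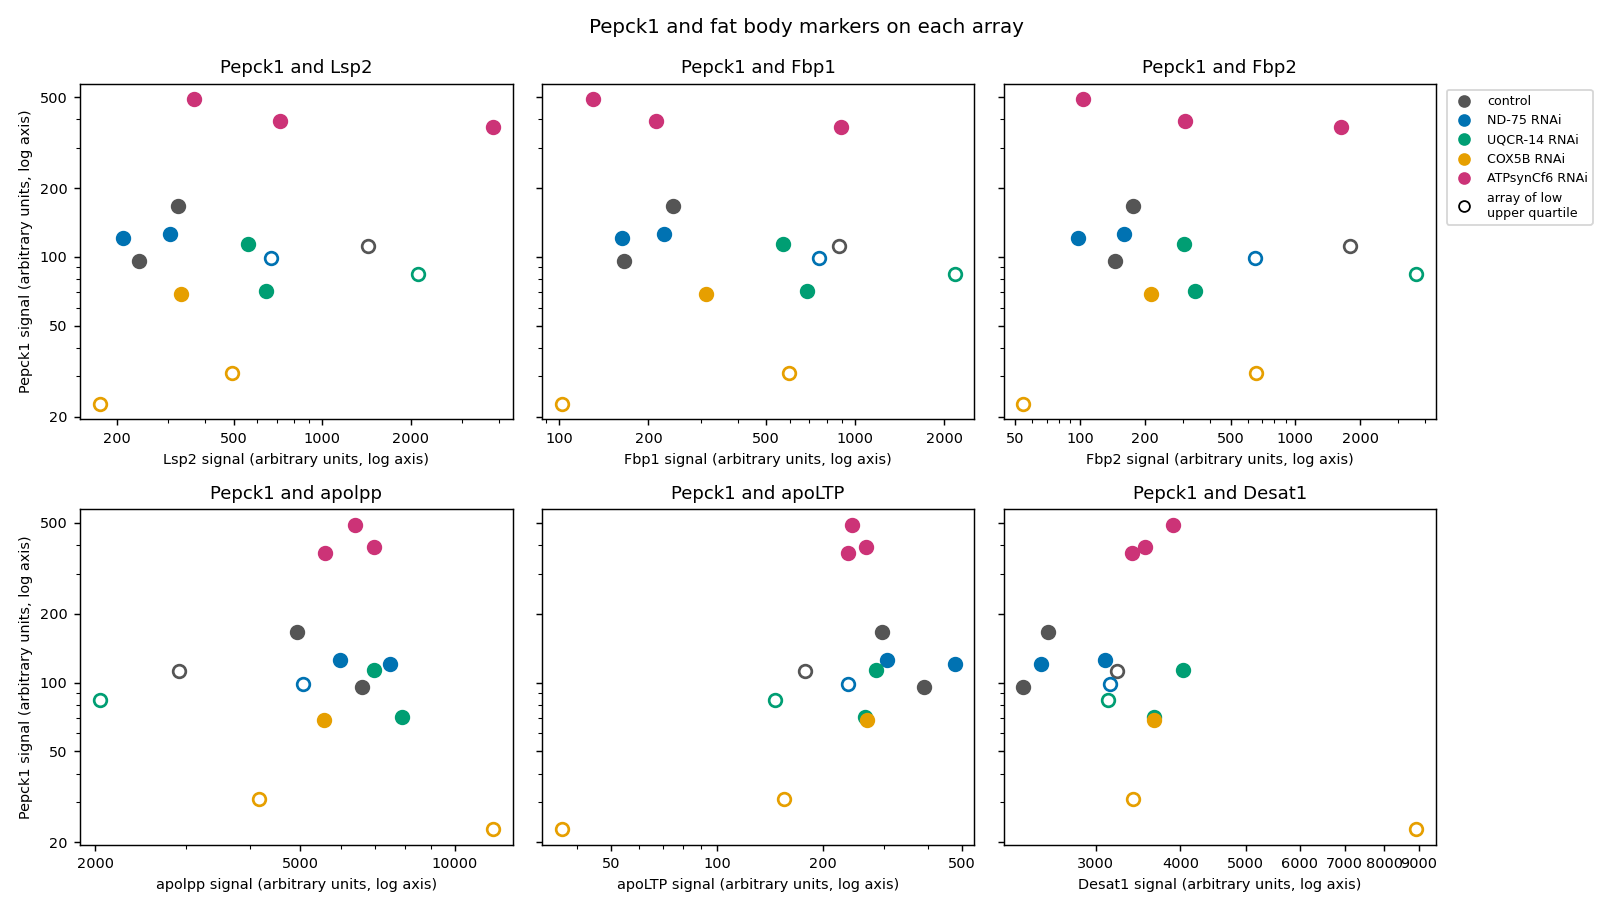
Pepck1 signal (vertical axes) against the signal of each of the 6 measured fat body markers (horizontal axes) on each of the 15 arrays, in arbitrary units on log axes, coloured by group, with hollow points for the 5 arrays of low upper quartile. On the 3 ATPsynCf6 RNAi arrays Pepck1 is at 369 to 491, while Lsp2 runs from 366 to 3812 and Desat1 from 3391 to 3899.

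The probe sets whose log2 signal was most like that of Pepck1 over the 15 arrays were those of CG31675 (Pearson 0.87, and 0.82 over the 10 arrays), Acsf2 (0.86 and 0.88), CG31674 (0.84 and 0.81), Slc45-1 (0.83 and 0.71) and hebe (0.83 and 0.78). CG31675 had signals of 194 to 213 in ATPsynCf6 RNAi and 73.4 to 102 in control, and like Pepck1 its lowest value, 2.76, was in COX5B RNAi. For Pepck2 the most alike were CG3726 (0.94 and 0.80), CG9312 (0.93 and 0.97), CG8031 (0.93 and 0.88), kon (0.93 and 0.75) and slow (0.92 and 0.86). CG3726 ran from 175 to 211 in ND-75 RNAi and from 89.3 to 169 in control, without overlap, as for 3.54% of all probe sets in this direction. CG9312 ran from 204 to 479 in ND-75 RNAi and from 129 to 310 in control, so those groups overlapped for it. They also overlapped for CG8031, kon and slow. For fbp the values were 0.97 for each of CG11695, SmydA-4, insb, Tgt and Clp over 15 arrays, and 0.59, 0.52, 0.66, 0.16 and 0.37 over the 10, so the likeness was lower without the 5 arrays of low upper quartile. These correlations describe arrays that share groups and the same outlying arrays, and carry no test.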

How the data were processed

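Per the submitters' processing notes, the authors computed MAS5 signals and used the Affymetrix Expression Console and Transcriptome Analysis Console. The deposited values are intensities on a linear scale for 18952 probe sets on 15 arrays, whose median signals ran from 23.1 to 64.1. No genome build is given in the sources used here. The authors' scaling was kept, 183 control probe sets were removed, and 10340 of 18769 were kept, where at least 3 arrays exceeded their own median. All 3 members passed. Log2(signal + 16) was fitted with limma 3.58.1 in R 4.3.3 (5 group means, eBayes with trend), two-sided, with Benjamini-Hochberg adjustment over the kept probe sets and a threshold of 0.05. Genes came from the array's annotation: 13647 probe sets had 1 gene, 402 several and 4720 were unlisted.

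Arrays were grouped by the labels. Array weights ran from 1.01 to 5.21 on 10 arrays and from 0.0266 to 0.297 on the 5 of low upper quartile, which correlated with the 10 at 0.774 to 0.927 (replicate 3) or with the others at 0.49 to 0.732 (COX5B RNAi 1). The 10 correlated at 0.969 to 0.99 among themselves. Alternatives were pseudocounts of 1 and 64, no filter, quantile normalization, array weights, the 10 arrays, a replicate block and leaving out each array. The percentiles, the Pepck1 over Pepck2 ratio and leaving out a further array of the 10 were chosen after seeing the data. The members and lists were chosen with earlier results of these data known. Named are the members, the targets, the 5 probe sets most alike to each member, PCB, Pfk, foxo, crc and up to 6 called genes of each list (where none was called, the 2 with the largest pooled change). The few other genes named were chosen after their values were seen. The limma step was tested on simulated data. The number of arrays and the distance of a signal from background limit the precision.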

Additional observations from a re-analysis of the deposited data

How the results depend on the processing

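Calls were made at a limma adjusted p under 0.05. The difference between ATPsynCf6 and COX5B RNAi chose Pepck1 and is left out of the calls. Over 15 arrays no other comparison of Pepck1, Pepck2 or fbp passed, and none did with a pseudocount of 1, without the filter or after quantile normalization. With a pseudocount of 64 one did, Pepck1 in UQCR-14 against ATPsynCf6 RNAi (-1.65). Calls appeared with array weights and over the 10 arrays for Pepck1 in ATPsynCf6 RNAi against control (1.68 and 1.59), in ND-75 against ATPsynCf6 RNAi (-1.64 and -1.63) and in UQCR-14 against ATPsynCf6 RNAi (-1.92 and -2.02). The same holds for Pepck2 in ND-75 RNAi against control (1.06 and 1.18), in ND-75 against ATPsynCf6 RNAi (1.44 and 1.49) and in UQCR-14 against ATPsynCf6 RNAi (0.97 and 1.03). The cause was not tested. All the Pepck1 calls use the ATPsynCf6 RNAi arrays on which the gene was chosen, so they are not independent of the choice. The Pepck1 difference between ATPsynCf6 and COX5B RNAi was 3.46 and 2.21 with pseudocounts of 1 and 64, 2.57 with array weights and 2.35 over the 10 arrays, and that of Pepck2 was -0.59 and -1.03 in those fits.

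Several changes that were not called took the other sign from the fit of 15 arrays, where the largest of them was 1.35 (fbp in UQCR-14 against COX5B RNAi), here with array weights and then over the 10 arrays. For fbp these were ND-75 RNAi (-0.27 and -0.25), COX5B RNAi (0.35 and 0.39), ATPsynCf6 RNAi (0.043 and 0.11) and the mean of the RNAi groups (0.064 and 0.11) against control, and ND-75 against COX5B RNAi (-0.62 and -0.64), ND-75 against ATPsynCf6 RNAi (-0.31 and -0.36) and UQCR-14 against COX5B RNAi (-0.23 and -0.20). For Pepck1 they were the mean of the RNAi groups (0.15 and 0.091, and 0.037 with a pseudocount of 64) and, with array weights, ND-75 RNAi (0.04). For Pepck2 they were COX5B RNAi (0.21 and 0.72, and 0.087 after quantile normalization) and, over the 10 arrays, UQCR-14 against COX5B RNAi (-0.002).

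Leaving out each of the 15 arrays in turn, Pepck1 ranged against control from -0.23 to 0.12 in ND-75 RNAi, -0.57 to -0.20 in UQCR-14 RNAi, -1.69 to -1.13 in COX5B RNAi, 1.49 to 1.84 in ATPsynCf6 RNAi and -0.20 to 0.15 in their mean. Pepck2 ranged from 1.05 to 1.69, 0.12 to 1.02, -1.20 to 0.14, -0.31 to 0.34 and 0.03 to 0.68 in the same order, and fbp from -0.49 to 0.36, -0.055 to 0.89, -1.46 to 0.29, -0.33 to 0.11 and -0.27 to 0.18. Among pairs of RNAi groups, Pepck1 ranged from 0.19 to 0.49 (ND-75 against UQCR-14), 1.05 to 1.61 (ND-75 against COX5B), -1.80 to -1.60 (ND-75 against ATPsynCf6), 0.72 to 1.29 (UQCR-14 against COX5B), -2.21 to -1.91 (UQCR-14 against ATPsynCf6) and 2.77 to 3.33 (ATPsynCf6 against COX5B). Pepck2 ranged from 0.32 to 1.23, 1.20 to 2.55, 1.24 to 1.49, 0.31 to 1.66, 0.13 to 1.03 and -0.15 to 1.19 in that order, and fbp from -1.02 to 0.076, -0.27 to 1.48, -0.36 to 0.50, 0.23 to 1.99, 0.08 to 1.03 and -0.43 to 1.32. Without COX5B RNAi 1 alone, Pepck1 passed in ND-75 and in UQCR-14 against ATPsynCf6 RNAi (limma adjusted p = 0.0484 and 0.0212). These pairs, too, contain the ATPsynCf6 RNAi arrays on which the gene was chosen. Leaving out a further array of the 10, Pepck1 ranged from -0.39 to 0.31 and Pepck2 from 0.80 to 1.57 in ND-75 RNAi against control, from 1.24 to 1.94 and from -0.69 to 0.08 in ATPsynCf6 RNAi against control, from -1.70 to -1.51 and from 1.40 to 1.58 in ND-75 against ATPsynCf6 RNAi, and from -2.31 to -1.72 and from 0.92 to 1.14 in UQCR-14 against ATPsynCf6 RNAi.

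The number of probe sets called, with array weights and then over the 10 arrays, was 162 and 175 in ND-75 RNAi against control, where it was 7 over 15 arrays. It was 462 and 475 in UQCR-14 RNAi (5 over 15 arrays), 21 and 128 in COX5B RNAi (0), 715 and 333 in ATPsynCf6 RNAi (2) and 413 and 323 in the mean of the RNAi groups (5). Among pairs it was 107 and 204 for ND-75 against UQCR-14 (7), 11 and 82 for ND-75 against COX5B (5), 315 and 467 for ND-75 against ATPsynCf6 (5), 192 and 292 for UQCR-14 against ATPsynCf6 (3) and 2 and 39 for ATPsynCf6 against COX5B (1), and it was 7 over the 10 arrays for UQCR-14 against COX5B (3). With a pseudocount of 1 it was 3 in ND-75 RNAi, 1 for ND-75 and for UQCR-14 against COX5B and 0 for ND-75 against ATPsynCf6, and with 64 it was 1 in COX5B RNAi. Without the filter it was 3 in UQCR-14 RNAi and 1 in the mean, and after quantile normalization 3 in UQCR-14 RNAi and 8 for ND-75 against COX5B. Leaving out 1 array gave 4 to 16 in ND-75 RNAi, 2 to 12 in UQCR-14 RNAi, 0 to 1 in COX5B RNAi, 0 to 14 in ATPsynCf6 RNAi and 0 to 11 in the mean, and, in the order of pairs above, 5 to 14, 2 to 9, 0 to 14, 3 to 6, 0 to 1 and 2 to 3.

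Outside ATPsynCf6 RNAi, same-numbered arrays deviated together (correlations of 0.167 to 0.852 in 18 pairs) but not throughout in the 12 pairs that include it (-0.362 to 0.149), so the numbers were not taken to pair the arrays. Taking the replicate number as a block changed none of these calls of the 3 genes. Pepck1 in ATPsynCf6 RNAi was then 1.64 (SE 0.34, limma adjusted p = 0.234) and Pepck2 in ND-75 RNAi 1.35 (SE 0.57, limma adjusted p = 1), and the block gave 3 calls in UQCR-14 RNAi and 4 in ATPsynCf6 RNAi.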
